A study of Mus musculus with 12 samples.

Results

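The oligoadenylate synthetase family was examined in primary mouse chondrocytes, the cells that build cartilage matrix. Its 7 members, Oas1a, Oas1b, Oas1g, Oas2, Oas3, Oasl1 and Oasl2, were chosen by gene symbol. They are 7 of the 57010 Ensembl gene IDs in the deposited tables of read counts, and all 7 passed the filter on low counts. The series holds 12 mRNA libraries in 3 groups of 4, with the treatment labelled Control, WT or SIRT5F101L mutant. The series text says that the cells were given plasmids by transfection, wild-type or SIRT5F101L mutant. SIRT5 is a sirtuin that strips acyl groups such as malonyl from protein lysines, and the series title ties it to chondrocyte metabolism and osteoarthritis. All 12 libraries carry the genotype label Wild type. What the control cells received, the strain, age and sex of the mice, and whether cells were pooled or came from separate cultures are not given in the labels, so p-values below measure the spread between these libraries. Replicate numbers follow the order of deposition and pair nothing.

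Oligoadenylate synthetases are interferon-stimulated sensors of double-stranded RNA. The catalytic members, among them Oas1a, Oas1g, Oas2 and Oas3, join ATP into oligoadenylates with a linkage unlike that of ordinary RNA, and these short chains act as a second messenger that leads to the breakdown of viral and cellular RNA. The Oasl proteins carry ubiquitin-like repeats after the synthetase fold, and Oasl1 is known as a brake on the translation of Irf7, a transcription factor that drives type I interferon genes. The family is known chiefly from antiviral defence. RNA levels of its genes are commonly used as a readout of interferon signalling in cells of many kinds.

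The sequence before the start of each gene is shown because interferon-responsive genes are often marked by a short element there, the interferon-stimulated response element. The RefSeq promoter table (GRCm38.p6) held a window of 250 bases before to 50 after the start for 5 of the 7 members, and Oas1b and Oas2 were not matched. The 100 bases before the start are printed 5′ to 3′ on the gene's strand, with matches to the core of that element (GAAANNGAAA) and to the consensus of NF-kB, an inflammatory transcription factor, in capitals. They lie on chromosome 5, at chr5:120907526-120907625 (minus strand) for Oas1a, chr5:120887614-120887713 (minus) for Oas1g, chr5:120777660-120777759 (minus) for Oas3, chr5:114923140-114923239 (plus) for Oasl1 and chr5:114896834-114896933 (plus) for Oasl2.
Oas1a: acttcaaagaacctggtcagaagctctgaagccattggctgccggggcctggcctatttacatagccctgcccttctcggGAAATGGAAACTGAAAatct
Oas1g: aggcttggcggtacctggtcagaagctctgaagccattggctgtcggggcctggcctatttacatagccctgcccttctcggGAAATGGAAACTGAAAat
Oas3: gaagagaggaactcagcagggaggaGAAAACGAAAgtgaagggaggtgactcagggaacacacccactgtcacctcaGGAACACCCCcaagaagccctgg
Oasl1: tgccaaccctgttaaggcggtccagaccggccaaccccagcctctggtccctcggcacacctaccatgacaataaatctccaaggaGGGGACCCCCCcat
Oasl2: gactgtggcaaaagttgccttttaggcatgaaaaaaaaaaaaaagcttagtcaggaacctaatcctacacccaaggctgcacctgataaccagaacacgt
Both strands of the whole window were searched, and overlapping matches were kept. The GAAANNGAAA core occurred as a pair of overlapping matches in Oas1a, from base -20 to -5 counted from the start, and in Oas1g, from base -18 to -3. Oas3 held it once, from base -75 to -66. These letters were not in the windows of Oasl1 and Oasl2. Of 32851 RefSeq mouse promoter windows of 300 bases, 3.44% held the core. The NF-kB consensus matched once in Oas3, from base -23 to -14, and in 2 overlapping places in Oasl1, from base -14 to -4, and 8.46% of windows held it. The motif TTCNNNGAA, the palindrome bound by activated STAT proteins, was in Oas1a alone of the 5, at base -98 to -90, and in 8.30% of windows. A match here is a string of letters and was not tested for binding.

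Libraries held 15095357 to 24242139 counts in all. On principal components of log2 CPM (reads of a gene scaled to library size), the first component, with 72.7% of the variance, placed Control libraries at -75.3 to -72.1 and plasmid libraries at 33.4 to 40.7. The second, with 5.66%, placed SIRT5F101L replicate 1 at -20.3 with WT replicates 2, 3 and 4 (-20.1 to -12.5), away from the other SIRT5F101L libraries (17.0 to 23.5). WT replicate 1 was at 1.07, so both plasmid groups were split on this component. Results that rest on SIRT5F101L replicate 1 are given with and without it. Sirt5, the gene named on the mutant plasmid, had 9 to 16 counts in Control, 1 to 9 in WT and 9 to 19 in SIRT5F101L libraries, so no rise was detectable, and the labels have no check from this gene. The summed level of 12 chondrocyte markers was 9184 to 11530 CPM in Control, 2843 to 2958 in WT and 2314 to 2558 in SIRT5F101L libraries. Of these, 10 were called lower in each plasmid group, while Hapln1 was called higher in both (0.25 and 0.18) and Acan in WT (0.47). As a background for this and the other marker lists, 28.1% of all genes were called lower in WT and 30.7% in SIRT5F101L. Called higher were 28.7% and 30.0%. The summed level of 11 macrophage markers was 189.9 to 225.4 CPM in Control, 137.0 to 155.6 in WT and 145.5 to 186.5 in SIRT5F101L libraries. Itgam was at 0 in every library, as was every ID of the X, Y and mitochondrial chromosomes. Whether a 0 in these libraries is a level or a gap in the counts was not tested. The macrophage markers did not all move one way. Of 10 tested, 9 were called lower in WT and 8 in SIRT5F101L, with median log2 fold changes of -1.16 and -1.22, while Cd14 rose from 12.4 to 51.3 and 59.8 CPM. The sum of 7 fibroblast markers was 29510 to 35400, 9555 to 10980 and 9189 to 10550 CPM, with 5 of 6 tested called lower and Pdpn called higher in each plasmid group (1.75 and 1.87). Lymphocyte markers summed to at most 1.01 CPM, and Cd3e, Cd3g, Ms4a1 and Nkg7 were at 0 throughout, while endothelial markers summed to 3.17 to 4.82 CPM. In bulk RNA, fewer cells of a type and less RNA per cell cannot be told apart. The part of these marker shifts in the family's values was not tested.

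Both plasmid groups had more oligoadenylate synthetase RNA than Control. Oasl1 moved from a low level, 26 to 52 counts per Control library, to the highest level per kilobase of the family, by 125.7-fold in WT and 108.9-fold in SIRT5F101L libraries. Oas1a, Oas1g, Oas2, Oas3 and Oasl2 rose by 1.56 to 2.23-fold in WT and by 1.63 to 2.47-fold in SIRT5F101L libraries. Oas1b, at 12.2 CPM in Control and 14.5 and 14.4 CPM in the plasmid groups, did not pass the test. By edgeR's quasi-likelihood test with adjustment over 14253 genes, 6 of 7 members were called higher (adjusted p under 0.05) and 0 lower in WT, where 28.7% of all genes were called higher and 28.1% lower. In SIRT5F101L libraries it was again 6 higher and 0 lower, against a background of 30.0% higher and 30.7% lower. Both comparisons use the same Control libraries.

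Counting changes of at least 2-fold (a log2 fold change of 1), 2 members passed in WT and 3 in SIRT5F101L libraries, while 9.10% and 9.84% of all genes did so upward. In 6 of 7 members every WT library lay above every Control library, and the same held for 6 in SIRT5F101L. Groups without overlap, in either direction, made up 53.5% and 51.3% of all genes. The median log2 fold change of the 7 members was 0.88 in WT and 0.99 in SIRT5F101L, beside -0.01 and -0.02 over all genes tested. Each of the 6 calls in each comparison was kept under all 18 alternative fits, which include leaving out any one library.

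**Figure D1:**
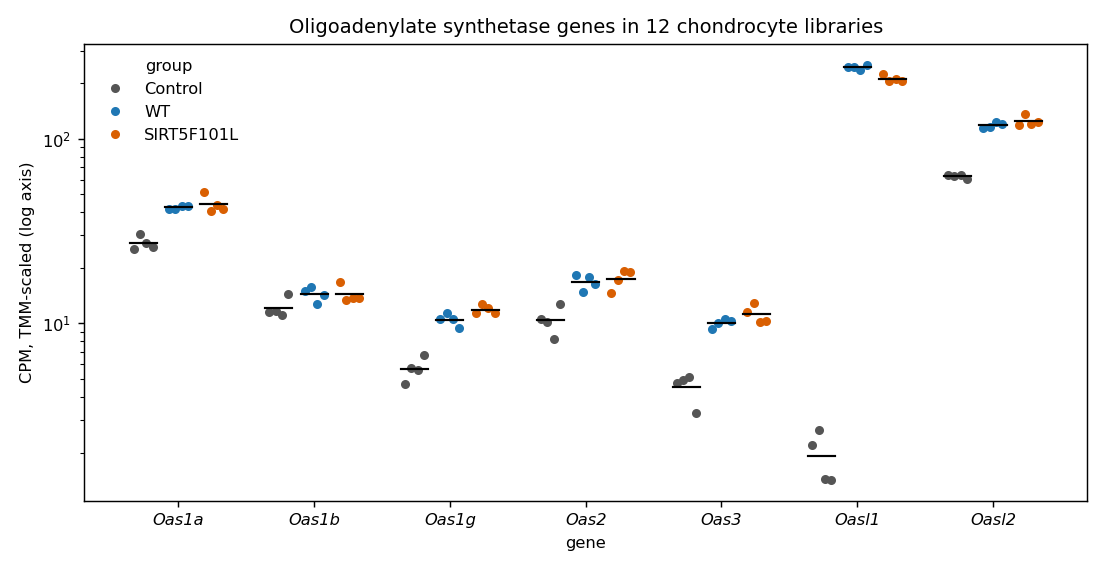
Level of each of the 7 genes in every library, in TMM-scaled CPM on a log axis, with Control in grey, WT in blue and SIRT5F101L in orange. Points are libraries in replicate order, 4 a group, and bars are means. Oasl1 stands at 1.42 to 2.64 CPM in Control and at 204.6 to 251.5 CPM in the plasmid groups, while the mean of Oas3, the next in fold change, is at 4.52, 10.1 and 11.2 CPM.

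Oas1a encodes a single-unit synthetase of the catalytic kind. Its level was 25.3, 30.6, 27.3 and 25.8 CPM in Control replicates 1 to 4. It was 41.6, 41.8, 43.4 and 43.3 CPM in WT and 51.5, 40.5, 43.5 and 41.8 CPM in SIRT5F101L. The lowest plasmid library thus exceeded the highest Control library, and SIRT5F101L replicate 1 was the highest of the 12. From 27.2 ± 2.40 CPM (SD, n = 4) in Control, Oas1a rose to 42.5 ± 0.984 in WT, a log2 change of 0.64 (SE 0.084, edgeR adjusted p 1.74e-06), and to 44.3 ± 4.94 in SIRT5F101L (0.70, SE 0.083, edgeR adjusted p 4.66e-07).

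Oas1g, a close copy of Oas1a at the same locus, was at 4.71, 5.73, 5.59 and 6.72 CPM in Control. It was at 10.6, 11.4, 10.6 and 9.41 CPM in WT and at 11.4, 12.7, 12.1 and 11.4 CPM in SIRT5F101L. Every plasmid library was above every Control library. The log2 fold change was 0.88 in WT (SE 0.12, edgeR adjusted p 3.01e-06) and 1.06 in SIRT5F101L (SE 0.12, edgeR adjusted p 1.85e-07). The split of reads between this pair is uncertain, and so is the level of each. Of all 150-base stretches of the longest Oas1a transcript, 32.4% occur letter for letter in Oas1g. Of those of the longest Oas1g transcript, 30.1% occur in Oas1a, while the other 5 members shared none with another gene. Reads that match both genes may have been counted for neither, and a sum of the counts does not restore them. With the counts of both genes summed, the log2 fold change was 0.68 (edgeR adjusted p 1.30e-07) in WT and 0.77 (edgeR adjusted p 2.09e-08) in SIRT5F101L. The summed pair was thus called higher in both plasmid groups.

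Oas1b, known in mice as the flavivirus resistance gene, was at 11.6, 11.7, 11.1 and 14.4 CPM in Control. It was at 15, 15.84, 12.77 and 14.30 CPM in WT and at 16.7, 13.4, 13.7 and 13.7 CPM in SIRT5F101L. Control replicate 4 lay inside the range of both plasmid groups, and the other Control libraries lay below both. The log2 fold change was 0.25 in WT (95% interval 0.02 to 0.48, edgeR adjusted p 0.0602) and 0.24 in SIRT5F101L (0.01 to 0.47, edgeR adjusted p 0.0655). Without Control replicate 4 both comparisons passed, at 0.34 (edgeR adjusted p 0.0164) and 0.33 (edgeR adjusted p 0.0178). Without SIRT5F101L replicate 1, the highest library, the change in SIRT5F101L was 0.16 (edgeR adjusted p 0.206). The call on Oas1b thus turns on single libraries, and across all 18 alternatives it passed in 5 for WT and in 2 for SIRT5F101L.

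Oas2 encodes a larger synthetase with a pair of fused units. It was at 10.5, 10.1, 8.26 and 12.7 CPM in Control, at 18.3, 14.8, 17.9 and 16.3 CPM in WT, and at 14.7, 17.1, 19.1 and 19.1 CPM in SIRT5F101L. The groups did not overlap with Control, and the lowest plasmid value was in SIRT5F101L replicate 1. Its log2 fold change was 0.70 in WT (SE 0.12, edgeR adjusted p 7.42e-05) and 0.75 in SIRT5F101L (SE 0.12, edgeR adjusted p 2.66e-05).

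Oas3, the longest of the family, with a coding sequence of 3414 bases against 1101 in Oas1a, senses long double-stranded RNA. It was at 4.76, 4.92, 5.11 and 3.28 CPM in Control, at 9.38, 10.1, 10.5 and 10.3 CPM in WT, and at 11.6, 12.9, 10.2 and 10.3 CPM in SIRT5F101L. All 8 plasmid libraries were above all 4 Control libraries. Oas3 had the highest fold change after Oasl1 in both comparisons, with log2 fold changes of 1.15 in WT (SE 0.14, edgeR adjusted p 5.23e-07) and 1.30 in SIRT5F101L (SE 0.14, edgeR adjusted p 7.76e-08). Control replicate 4 was its lowest library, and Oas3 was also called without it.

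Oasl1 held 38, 52, 27 and 26 counts in the Control libraries. It held 4932, 3801, 4080 and 4889 counts in WT and 4187, 3149, 5245 and 3619 in SIRT5F101L libraries. Scaled for depth, this is 2.21, 2.64, 1.44 and 1.42 CPM in Control, 243.4, 243.8, 235.7 and 251.5 in WT, and 223.8, 204.6, 210.4 and 205.1 in SIRT5F101L. Control counts were all above the floor of 3, so the fold change is a measured one, and the 3 groups did not overlap with each other. From 1.93 ± 0.599 CPM (SD, n = 4), the level rose to 243.6 ± 6.44 in WT, a log2 change of 6.97 (SE 0.11, edgeR adjusted p 4.12e-20), or 125.7-fold with a 95% interval of 106.7 to 148.2. In SIRT5F101L it rose to 211.0 ± 8.96 CPM, a log2 change of 6.77 (SE 0.11, edgeR adjusted p 5.71e-20), or 108.9-fold (92.4 to 128.3). Among 14253 genes, Oasl1 ranked 14 by log2 fold change in WT and 18 in SIRT5F101L. The annotated exons of Oasl1 overlap those of the predicted gene Gm13822 over 1.46% of their length, and the strand setting of the counting is not given in the sources used here.

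Oasl2, the second Oasl gene, keeps synthetase activity besides its ubiquitin-like repeats. It was at 63.3, 63.2, 63.7 and 60.9 CPM in Control. It was at 114.1, 115.3, 123.6 and 119.8 CPM in WT and at 119.4, 136.7, 119.6 and 123.6 CPM in SIRT5F101L. Every plasmid library lay above the whole Control range. The log2 fold change was 0.91 in WT (SE 0.059, edgeR adjusted p 5.72e-11) and 0.99 in SIRT5F101L (SE 0.059, edgeR adjusted p 1.43e-11). These are the smallest standard errors among the members, on the deepest counts that the family had in Control.

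**Figure D2:**
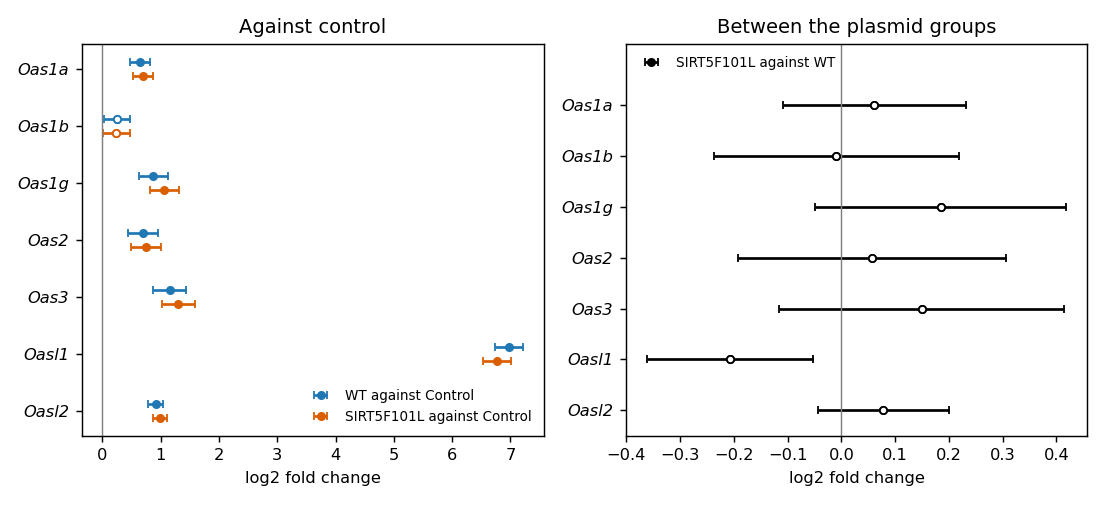
Log2 fold change of each gene with its 95% interval from the edgeR fit, left for WT (blue) and SIRT5F101L (orange) against Control, right for SIRT5F101L against WT on an expanded scale. Filled points passed an adjusted p of 0.05 and open points did not. Oas1b is open in both comparisons with Control, and all 7 genes are open on the right.

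To rank the genes against each other, CPM was divided by the length of each gene's merged exons in kilobases. The levels of Oas1a and Oas1g are uncertain because they share sequence, and so are their ranks and the shares given below. In Control, Oas1a came first at 14.5 CPM per kb, then Oasl2 at 9.85 and Oas1b at 6.11. Oas1g at 2.43 and Oas2 at 2.34 overlapped in their ranges, as did Oasl1 at 0.738 and Oas3 at 0.639. In WT the order opened with Oasl1 at 93.4 CPM per kb, then Oas1a at 22.5, Oasl2 at 18.5, Oas1b at 7.27, Oas1g at 4.48, Oas2 at 3.78 and Oas3 at 1.43, with Oas1g and Oas2 the only neighbours that overlapped. SIRT5F101L libraries gave the same order, from 80.9 CPM per kb for Oasl1 down to 1.59 for Oas3, and no neighbours overlapped. Oasl1 thus went from a level shared with the lowest member to the top, and the other 6 kept their order except for ties. When the longest transcript was used as the length instead, a choice made after the data were seen, Oasl2 stood above Oas1a in all 3 groups and Oas3 above Oasl1 in Control.

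Summed over the 7 genes, the family level was 36.5 ± 1.57 CPM per kb (SD, n = 4) in Control, 151.4 ± 2.24 in WT and 141.8 ± 5.62 in SIRT5F101L. Oasl1 made up 1.46% to 2.63% of that sum in Control libraries, 60.6% to 62.4% in WT and 56.4% to 57.5% in SIRT5F101L. The share of Oas1a went from a mean of 39.5% in Control to 14.9% and 16.5%, although its own level rose. The share of Oasl2 went from 27.0% to 12.2% and 13.8%. Reads of Oasl1 per read of Oasl2, a ratio within a library that scaling cannot alter, were 0.0226 to 0.0417 in Control, 1.91 to 2.13 in WT and 1.50 to 1.87 in SIRT5F101L. The ratio of Oasl1 to each of the other 6 members was lower in all SIRT5F101L than in all WT libraries for Oas1a, Oas1b, Oas1g, Oas3 and Oasl2. Against Oas2 the plasmid groups overlapped, at 13.2 to 16.5 in WT and 10.7 to 15.2 in SIRT5F101L. These ratios share Oasl1 as numerator and are not separate results, and the difference in Oasl1 itself did not pass the test. For Oas1b the highest SIRT5F101L ratio was 15.34 and the lowest WT ratio 15.39. SIRT5F101L replicate 1 was the library of its group nearest to WT against Oas1g, Oas2 and Oasl2, and the farthest from WT against Oas1a and Oas1b.

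**Figure D3:**
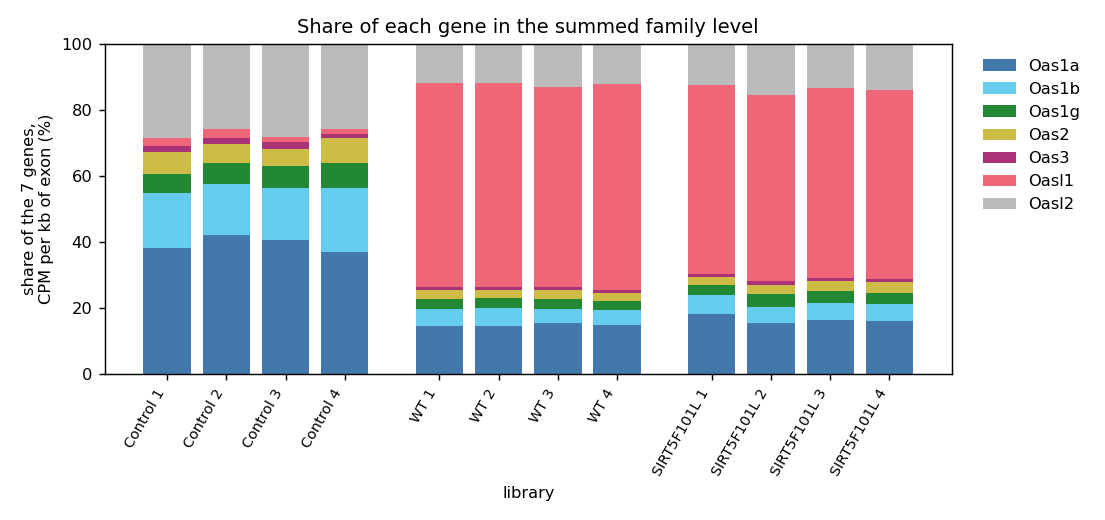
Share of each gene in the summed level of the 7 genes (CPM per kb of exon, in percent), as stacked bars from 0 for each of the 12 libraries. Oasl1 takes 1.46% to 2.63% of each Control bar and 56.4% to 62.4% of each plasmid bar, and the bars of a group look alike.

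The mutant was then set directly against the wild-type plasmid. In SIRT5F101L against WT, 0 of 7 members were called in either direction by edgeR (1 at an unadjusted p under 0.05, as were 1701 of all 14253 genes), and DESeq2 also called 0. Over all genes, 0.0281% were called higher and 0.0140% lower. The groups did not overlap for 2 members, Oas1g (higher in SIRT5F101L) and Oasl1 (lower), where 4.02% of all genes had no overlap. The median of the 7 log2 fold changes was 0.06, beside 0.00 over all genes.

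Oasl1 had the lowest unadjusted p of the family in this comparison. Its log2 fold change was -0.21 (95% interval -0.36 to -0.05, edgeR p 0.0114, adjusted p 0.360), from 243.6 CPM in WT to 211.0 in SIRT5F101L, and the adjusted p, from edgeR or DESeq2, ran from 0.0113 to 0.743 among 18 alternatives. The lowest came from leaving out SIRT5F101L replicate 1, at -0.24, the only alternative of the 18 in which a member was called. That fit also called 2213 of 14528 genes in all, against 6 of 14253 with all 12 libraries. Oas1g was at 0.18 (-0.05 to 0.42) and Oas3 at 0.15 (-0.12 to 0.41). The intervals were -0.11 to 0.23 for Oas1a, -0.24 to 0.22 for Oas1b, -0.19 to 0.31 for Oas2 and -0.04 to 0.20 for Oasl2. Over the 7 members the intervals thus reached no further than -0.36 and 0.42 on the log2 scale. An interval that includes 0 does not show that the plasmids act alike.

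Within the SIRT5F101L group the members did not vary together. Replicate 1 had the highest level of Oas1a, Oas1b and Oasl1 and the lowest of Oas2 and Oasl2. Replicate 2 had the highest level of Oas1g, Oas3 and Oasl2 and the lowest of Oas1a, Oas1b and Oasl1. In WT, replicate 3 had the lowest Oasl1 and Oas1b and the highest Oas1a, Oas3 and Oasl2. These are orders within 4 libraries and carry no test.

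The 5 other Oas genes of the mouse, Oas1c, Oas1d, Oas1e, Oas1f and Oas1h, were low in these cells. Oas1c held 18 to 39 counts per library, and its log2 fold changes of -0.42 and -0.39 did not pass (edgeR adjusted p 0.225 and 0.254). Oas1d, Oas1e and Oas1f had at most 2 counts in any library. Oas1h had 0 to 2 counts in Control, 3 to 11 in WT and 2 to 8 in SIRT5F101L, and it fell below the filter. Every WT library thus had more Oas1h counts than every Control library, at counts near the floor of 3 and with no test.

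Genes that act with the family, together with the 5 other Oas genes, were taken from lists set up beside the members. They were 75 genes in all, of which 48 passed the filter, Oas1c among them. In WT, 26 were called higher, 11 lower and 11 not called, and in SIRT5F101L the counts were 24, 10 and 14. Over all genes, 28.7% were called higher and 28.1% lower in WT, and 30.0% and 30.7% in SIRT5F101L. These shares are also the background for the counts of each single list below. The median log2 fold change of the 48 genes was 0.30 in WT and 0.29 in SIRT5F101L, below that of the members. Between the plasmid groups 0 of the 48 were called by edgeR. Without SIRT5F101L replicate 1, 7 were called higher and 5 lower in SIRT5F101L, in a fit that called 2213 of all 14528 genes tested.

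Downstream of the synthetases, 2 of 4 genes tested were called higher and 1 lower in each plasmid group. Abce1, a ribosome-recycling factor also known to restrain this pathway, rose by 0.38 in WT and 0.43 in SIRT5F101L on the log2 scale. Pde12, a phosphodiesterase that can break down oligoadenylates, rose by 0.40 and 0.42. Akap7, which holds a domain related to oligoadenylate phosphodiesterases, fell by 0.60 in WT and by 0.37 in SIRT5F101L. The rises of Abce1 and Pde12 were smaller than that of each of the 6 synthetase genes called.

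Upstream, interferon transcripts were at or near the limit of detection. All 21 interferon genes listed, Ifnb1, the alpha genes, Ifng and the lambda genes among them, had at most 3 counts in every library, and 17 were at 0 in all 12. None passed the filter, so the lists give no fold change for an interferon. Of 11 tested genes for interferon receptors and JAK-STAT signalling, 4 were called higher and 4 lower in WT, and 4 and 3 in SIRT5F101L. The kinase Jak1 rose by 0.42 and 0.55, and the transcription factor subunit Stat2 rose by 0.55 and 0.48. Irf9, which joins Stat2 on the response element, fell by 0.23 in WT and by 0.26 in SIRT5F101L. Named after their values were seen, Jak2 (0.29 and 0.51) and Ifngr2 (0.20 and 0.16) rose, Ifngr1 was called lower at -0.30 in both, and Ifnlr1 was called lower in WT (-0.95) with -0.69 in SIRT5F101L (edgeR adjusted p 0.0588). The receptor chain Ifnar1 did not pass in either group, at 93.3, 93.2 and 96.7 CPM in Control, WT and SIRT5F101L.

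Among sensors of nucleic acids and their adaptors, 9 of 13 tested genes were called higher and 1 lower in each plasmid group. The RNA sensors Rigi (0.32 and 0.48) and Ifih1 (1.379 and 1.47) rose, as did the DNA sensor Ifi204 (1.19 and 1.28) and the ubiquitin ligase Trim25 (0.91 in both). Ticam1, the adaptor of Tlr3 and the only gene of the list called lower, was at -0.65 and -0.63. The highest fold change of this list was that of Zbp1, a sensor of left-handed nucleic acids, which rose from 7.17 ± 0.769 CPM (SD, n = 4) to 55.9 ± 3.76 in WT and 58.9 ± 3.41 in SIRT5F101L, by 2.96 and 3.04 on the log2 scale. Ticam1 and Zbp1 were named after their values were seen. Even Zbp1 was far from the change of 6.97 and 6.77 in Oasl1.

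Of 8 kinases and regulatory factors that control interferon genes, 4 rose and 2 fell in each group. Irf7, whose translation Oasl1 is known to restrain, rose from 144.0 ± 6.90 CPM (SD, n = 4) in Control to 453.2 ± 19.5 in WT and 450.5 ± 36.1 in SIRT5F101L, by 1.65 on the log2 scale in both. The kinases Ikbke (0.93 and 0.90) and Tbk1 (0.21 and 0.25) also rose, and Irf3, which starts the interferon response, was called lower at -0.45 and -0.62. The other 2 calls, named after their values were seen, were Irf1, higher at 0.62 and 0.33, and Irf8, lower at -1.52 and -1.45. Among 5 other effectors that bind double-stranded or foreign RNA, 3 rose and 1 fell in each group. Ifit1 rose by 1.26 and 1.27 whereas Ifit3 fell by 0.79 and by 0.81. Adar, an enzyme that edits double-stranded RNA, named after its values were seen, rose by 0.65 and 0.87. Eif2ak2, the RNA-activated kinase PKR, was at 0.09 in WT (edgeR adjusted p 0.188) and rose by 0.23 in SIRT5F101L. Ifit2 rose by 0.18 in WT and was at 0.14 in SIRT5F101L (edgeR adjusted p 0.0829). Known interferon-stimulated genes of this list thus went both ways, with Ifit1 and Ifit3 apart.

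Of 6 genes that feed back on interferon signalling, 4 rose and 2 fell in WT, and 2 rose and 2 fell in SIRT5F101L. Socs3 rose by 1.21 and 1.15 and the phosphatase gene Ptpn2 by 0.84 and 0.93. Socs1 (-0.52 and -0.61) and Ptpn6 (-1.46 and -1.40), named after their values were seen, were called lower. Isg15, a ubiquitin-like modifier, rose by 0.38 in WT and was at 0.17 in SIRT5F101L (edgeR adjusted p 0.193). Usp18, which removes that modifier, rose by 0.42 in WT and was at 0.13 in SIRT5F101L (edgeR adjusted p 0.405). In SIRT5F101L against WT, Isg15 was at -0.21 and Usp18 at -0.29 on the log2 scale, and neither passed after adjustment, so a difference between the plasmids was not shown for either gene, nor its absence.

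**Figure D4:**
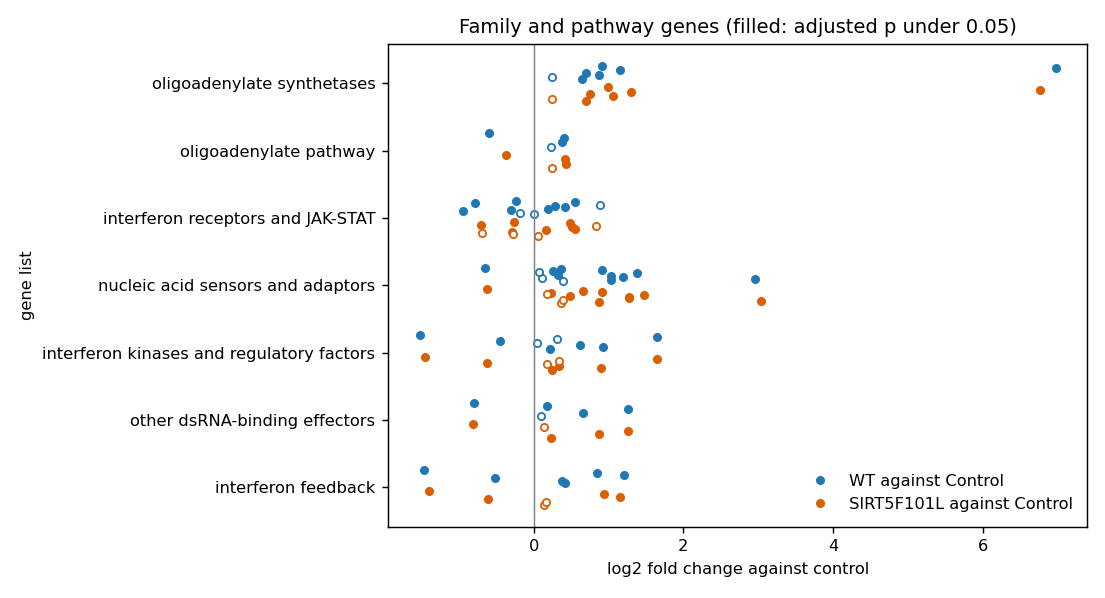
Log2 fold change against Control of each of the 7 members and of each tested gene of 6 lists around them. There is one point a gene, blue for WT and orange for SIRT5F101L, with filled points past an adjusted p of 0.05. The points of the 7 members lie to the right of 0, with Oasl1 at 6.97 and 6.77, while each of the 6 lists holds points on both sides. The other Oas genes are not drawn, and of these Oas1c, the only one tested, was left of 0, at -0.42 and -0.39.

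Genes whose pattern was most like the family's were ranked by Pearson's r of log2 CPM with the mean standardized level of the 7 members. Over the 12 libraries the highest r among 11524 genes were those of Medag (0.996), the neutrophil chemokine gene Cxcl5 (0.996), the alarmin gene S100a8 (0.995), the iron-carrier gene Lcn2 (0.995) and the ion exchanger gene Clcn3 (0.994). These values mostly restate the step between Control and plasmid libraries, since 1778 genes had an r over 0.9. With group means removed, over the 8 plasmid libraries, the list was different: Zfyve21 (0.978), Fam221a (0.977), Cdk2ap2 (0.973), Selenow (0.970) and Dbnl (0.966) came first, and 90 genes had an r over 0.9. Within groups the members themselves did not vary together, with r between pairs from -0.75 to 0.82, so this mean stands for no pattern that they share. All libraries share their scaling, the r are given as a description, and they were chosen as the highest of many.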

How the data were processed

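The deposited files hold whole-number read counts per Ensembl gene ID for 12 libraries, made by the authors. Per the labels' protocols, poly(A) RNA was prepared with a NEBNext Ultra kit and sequenced as 150-base paired-end reads. The submitters' processing notes name FastQC 0.11.9, HISAT2 2.2.1, HTSeq 2.0.2, DESeq2 1.38.3 and the GRCm39 build, with no strand setting. IDs were paired with symbols for 52029 of 57010 IDs. Every library listed all 3998 IDs of the X, Y and mitochondrial chromosomes at 0. No libraries were identical.

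Counts were fitted with edgeR 4.0.16 (R 4.3.3): TMM scaling, its default filter by group, 1 quasi-likelihood fit of all 12 libraries, 2-sided tests, and Benjamini-Hochberg adjustment over 14253 genes. CPM values are TMM-scaled. The biological coefficient of variation was 9.18%. A count of 3 was the floor, and floors and intervals cover counting and library spread only. Lengths, exon overlaps and shared stretches came from GENCODE M21 on GRCm38, an older build than the authors', so lengths are approximate. The script was tested on simulated counts.

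Members and gene lists were chosen with earlier results of these data known. The rule for names took all 7 members and, of each other list, at most 4 genes with the highest mean CPM. Names outside it were chosen after their values were seen: those so marked in the text, the low Oas1 copies, and the cell type markers named for being at 0 or for moving against their list. Likeness was ranked among named genes averaging 1 CPM or more. Alternatives were RLE scaling, no filter beyond 1 count, the 8 libraries compared, DESeq2 1.42.0, a robust prior, a trend on transcript length (loess span 0.5) as offset, and leaving out each library. Summed copies, transcript length and the pathway counts under alternatives were added after seeing the data. Some genes of the lists are counted in the totals but are not reported here.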

Additional observations from a re-analysis of the deposited data

Results flagged for a closer look

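Each of the 7 genes was screened in each of the 3 groups for a library whose gap to its nearest neighbour was too large a part of the group's range by Dixon's test for 4 samples. Of 21 screened, 2 were found, where chance flags about 1 in 20, or 1.05 here. Oas1b in SIRT5F101L replicate 1 was at 16.7 CPM, against 13.4 to 13.7 in the other 3 libraries. Oasl2 in Control replicate 4 was at 60.9 CPM, against 63.2 to 63.7 in the others.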

How the results depend on the processing

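Against Control, the direction of all 7 members held under every alternative run, and calls changed for Oas1b alone. In WT, Oas1b passed with the 8 libraries compared (0.27), with the length trend as offset (0.36) and in 3 of the fits without one library. In SIRT5F101L it passed with the length offset (0.40) and without Control replicate 4. Between the plasmid groups, the number of members called ran from 0 to 1 over fits without one library, pathway genes called higher from 0 to 7 and lower from 0 to 5, each highest without SIRT5F101L replicate 1. The sign of small differences turned: Oas1a ran from -0.017 to 0.10 and Oas1b from -0.089 to 0.033 when one library was left out, and Oas1b was 0.041 with the length offset. The cause was not tested. Over all genes, calls in SIRT5F101L against WT numbered 6, 354 with no filter beyond 1 count, 43 by DESeq2, 16 with the length offset, 2 with the robust prior, 2 with 8 libraries, and 0 to 2213 without one library. The low Control counts of Oasl1, 26 to 52, limit the precision of its fold change. No paired analysis was possible because replicate numbers only follow the order of deposition.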
